A study of Capra hircus with 18 samples.

Results

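A total of 120 genes were measured in goats transported for 30 min and in goats transported for 180 min, and the transported groups were compared with each other directly on these genes. The members were every gene whose identifier stands in both deposited tables, of which one compares the 30 min group with control and the other the 180 min group with control, and they are 120 of the 1557 genes in either table. The 30 min comparison lists 430 genes and the 180 min comparison 1247 genes. Of the 120 genes, 88 had a gene name and 32 an identifier only, and 112 were annotated as protein coding, 6 as lincRNA, 1 as miRNA and 1 as mitochondrial rRNA. Each gene was placed by whether its level at 180 min was higher than, lower than or within 2-fold of its level at 30 min.

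The animals were intact male Spanish goats, 8 months of age, that had gone without feed overnight. RNA came from blood drawn after transport and stabilised in the tube, with 1 library per goat. The 30 min group (goats 21, 22, 24 and 27) had travelled about 50 km, the 180 min group (goats 10, 11, 13, 14, 15, 16 and 17) about 200 km, and the control group (goats 1, 3, 4, 6, 7, 8 and 9) had stayed in pens. The treatments were run on 2 days, at about -3.0 and 1.0 °C. Which goats travelled on which day was not recorded in the labels, so day and group cannot be told apart here. No goat was sampled in both transported groups, and a longer time on the trailer was also a longer time since loading and a longer distance.

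Transport of livestock activates the hypothalamic, pituitary and adrenal axis, which releases glucocorticoids, and the sympathetic nerves, which release catecholamines. Both hormones act on circulating leukocytes. Glucocorticoids switch on a set of target genes directly, immediate early genes respond within minutes of a stimulus and fade soon after, and both hormones bring neutrophils into the circulation. Blood RNA is a mixture of all these cells, so more cells of a type and more RNA per cell cannot be told apart in these libraries.

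Levels are given in FPKM, reads scaled by gene length and by the size of the library, and differences as log2(FPKM + 0.1) at 180 min minus 30 min, a scale that understates differences of genes with few reads. The library size behind the FPKM lay between 13992574 and 22855051 at 30 min, between 11290309 and 34125715 at 180 min, and between 10443023 and 39473244 in control. Membership itself was decided on contrasts of these same transported goats with the same 7 control goats, so the direct comparison is not independent of it. In the mean of log2 levels 57 members were above control in both transported groups, 59 were below control in both, and 4 were below at 30 min and above at 180 min. These directions were used in choosing the genes and are given as description only. For the 4 genes on opposite sides of control, the choice itself fixed the direction of the gap between the means of the transported groups.

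In the direct comparison, 5 genes were higher at 180 min at an unadjusted limma p-value under 0.05, which is 4.17% of the genes tested, and 0 were lower, which is 0.0%. The 5 genes were *SLC26A8*, *GAREM2*, *INHBA*, *TINAGL1* and the miRNA gene ENSCHIG00000001668, with differences between 1.35 and 2.76 on the log2 scale. They were 3 of the 4 genes on opposite sides of control, 2 of the 57 above control in both groups and 0 of the 59 below it. After Benjamini-Hochberg adjustment over all 120 genes, 0 had a limma p-value under 0.05 (0.0%), and edgeR on the read counts also gave 0, whereas DESeq2 gave 5. edgeR, DESeq2 and the exact permutation test also gave 0 genes lower at 180 min. In the exact permutation test over all 330 ways of drawing 4 of the 11 goats, 5 genes had an unadjusted p-value under 0.05, all of them the genes called by limma, and a single gene could not reach an adjusted p-value below 0.364.

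For 31 genes (25.8%) the 95% confidence interval of the difference lay inside 2-fold in either direction, on the scale with 0.1 FPKM added. The count rests on that constant, with 8 genes at 0.01 FPKM and 60 at 1 FPKM, and was 14 with DESeq2. Of these, 15 had a mean of at least 10 reads per transported goat, 16 had fewer, and in 8 every transported goat had 3 reads or fewer. The remaining 84 genes were neither called nor bounded within 2-fold. Their order between 30 and 180 min was not detectable with limma in these goats, although *PTX3*, *ITPKC* and *SPHK1* among them passed the unadjusted threshold in both edgeR fits and in DESeq2, and *PTX3* also passed after adjustment in DESeq2. Over all members the mean was higher at 180 min in 73 and lower in 47, with a median difference of 0.06, but this split moved with the scaling, the model and single goats. It was 58 higher and 62 lower both with median centring and in edgeR with TMM factors (median -0.01 in each), 88 and 32 in edgeR on the library sizes of the FPKM, 86 and 34 in DESeq2, 87 and 33 without goat 10 and 61 and 59 without goat 24. Median centring and the TMM factors were computed on the members alone, so the near even split under them was largely built in. The median half-width of the interval was 1.27 for the 89 genes with at least 10 reads, which is wider than 2-fold. For each gene limma used a common variance for the transported groups, although in most of these genes the SD was larger at 180 min. Interval widths and calls depend on that setting, and a fit with unequal variances was not run.

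**Figure D1:**
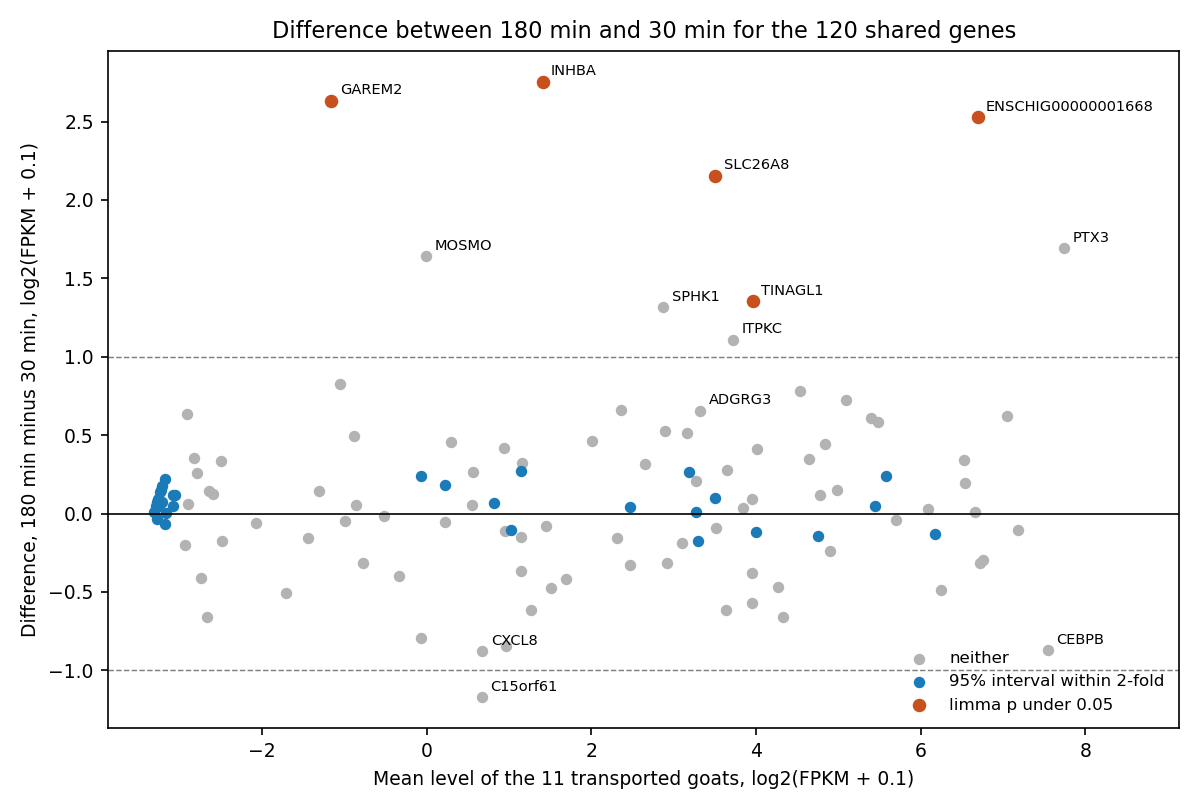
Difference between 180 min and 30 min (log2(FPKM + 0.1), vertical axis) against the mean level of the 11 transported goats (horizontal axis), 1 point per gene for the 120 shared genes, with dashed lines at 2-fold. The 5 genes with a limma p under 0.05 lie at 1.35 or above, and 0 genes below the zero line are marked.

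The most separated genes were *INHBA*, *GAREM2* and the miRNA gene, in which every goat of 180 min was above every goat of 30 min. Such a separation was found in 3 genes higher at 180 min (2.5%) and in 0 genes lower (0.0%). All 3 are among the 4 genes on opposite sides of control, and the fourth, *SPHK1*, overlapped. A gap between the group means of these 4 genes was part of how the members were chosen, so the calls of 3 of them are not independent of that choice, and their values are given as description. *INHBA* (ENSCHIG00000025901, chromosome 4, 40862502 to 40878751 in the coordinates of the tables, whose genome build is not given in the sources used here) encodes the beta A subunit shared by activins and inhibins. It was at 0.921, 0.778, 0.438 and 0.695 FPKM in goats 21, 22, 24 and 27, and at 180 min from 1.58 to 51.8 FPKM with a median of 2.94. Goat 10 was the highest and goats 11 and 17 followed at 10.7 and 6.15 FPKM, while the lowest goat of 180 min was still above the 30 min group. The difference was 2.76 (standard error 0.82).

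*GAREM2* (chromosome 11, 73023087 to 73037344) encodes an adaptor of growth factor receptor signalling and was scarce, with 0 to 6 reads per goat at 30 min and 9 to 135 at 180 min. Its levels were 0, 0.101, 0 and 0.0915 FPKM at 30 min and from 0.155 to 4.59 FPKM with a median of 0.731 at 180 min. Goats 15 and 17 were close to the 30 min group, at 0.155 and 0.179 FPKM. The difference was 2.63 (standard error 0.71), and with 2 goats of 30 min at 0 reads its size depends on the 0.1 FPKM added before the logarithm.

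The miRNA gene ENSCHIG00000001668 (chromosome 19, 8929131 to 8929217, minus strand) is 87 bases long. It was at 44.96, 37.7, 16.4 and 46.6 FPKM at 30 min and from 59.7 to 2272 FPKM with a median of 119 at 180 min, from 20 to 86 and from 116 to 2232 reads per goat. The libraries were made from poly(A) RNA, so these are reads that fall on the gene model and not a measure of the mature miRNA. The difference was 2.53 (standard error 0.94), and without goat 24, the lowest of the 30 min group, it was 2.18, and the limma call was lost.

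*SPHK1*, the kinase that makes sphingosine-1-phosphate, shared with these 3 genes a mean below control at 30 min and above it at 180 min. Its levels were 2.803, 6.004, 3.99 and 3.77 FPKM at 30 min and from 2.37 to 95.6 FPKM with a median of 8.24 at 180 min. Goat 10 again stood highest, goat 14 lay below the whole 30 min group at 2.37 FPKM, and the difference was 1.32 (95% interval -0.56 to 3.19). On the counts it was 2.35 in edgeR on the library sizes of the FPKM, 2.57 in edgeR with TMM factors and 2.36 in DESeq2, past the unadjusted threshold in each, unlike in limma.

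In these 4 genes goat 10 was the highest and goat 11 the second highest of the 180 min group. Goat 10 held 66.3% of the *INHBA* total of its group, 52.4% of *GAREM2*, 67.2% of the miRNA gene and 64.3% of *SPHK1*. Among the control goats, goat 3 was the highest for *INHBA* at 7.11, *GAREM2* at 1.25 and the miRNA gene at 399 FPKM, above 5, 6 and 5 of the 7 goats of 180 min.

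Goat 10 also stood apart in the few platelet genes that the 180 min comparison lists. Of a list of 20 platelet genes, 5 were in the 180 min table and 0 in both tables, so their levels at 30 min were not analysed here. The 5 were listed because they differed from control in the 180 min group, goat 10 included. The other platelet genes had no values for these goats, so the 5 do not stand for platelet genes as a whole. The summed level of the 5 was 1647 FPKM in goat 10, 38.7 to 263.7 in the other goats of 180 min and 12.7 to 280.6 in control. *GP1BB*, a subunit of the platelet receptor for von Willebrand factor, made up most of it, *SELP*, *CLEC1B* and *VWF* were also highest in goat 10 among these goats, and *MMRN1* was at 0 in it. The part of these cells in the 4 genes was not tested.

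**Figure D2:**
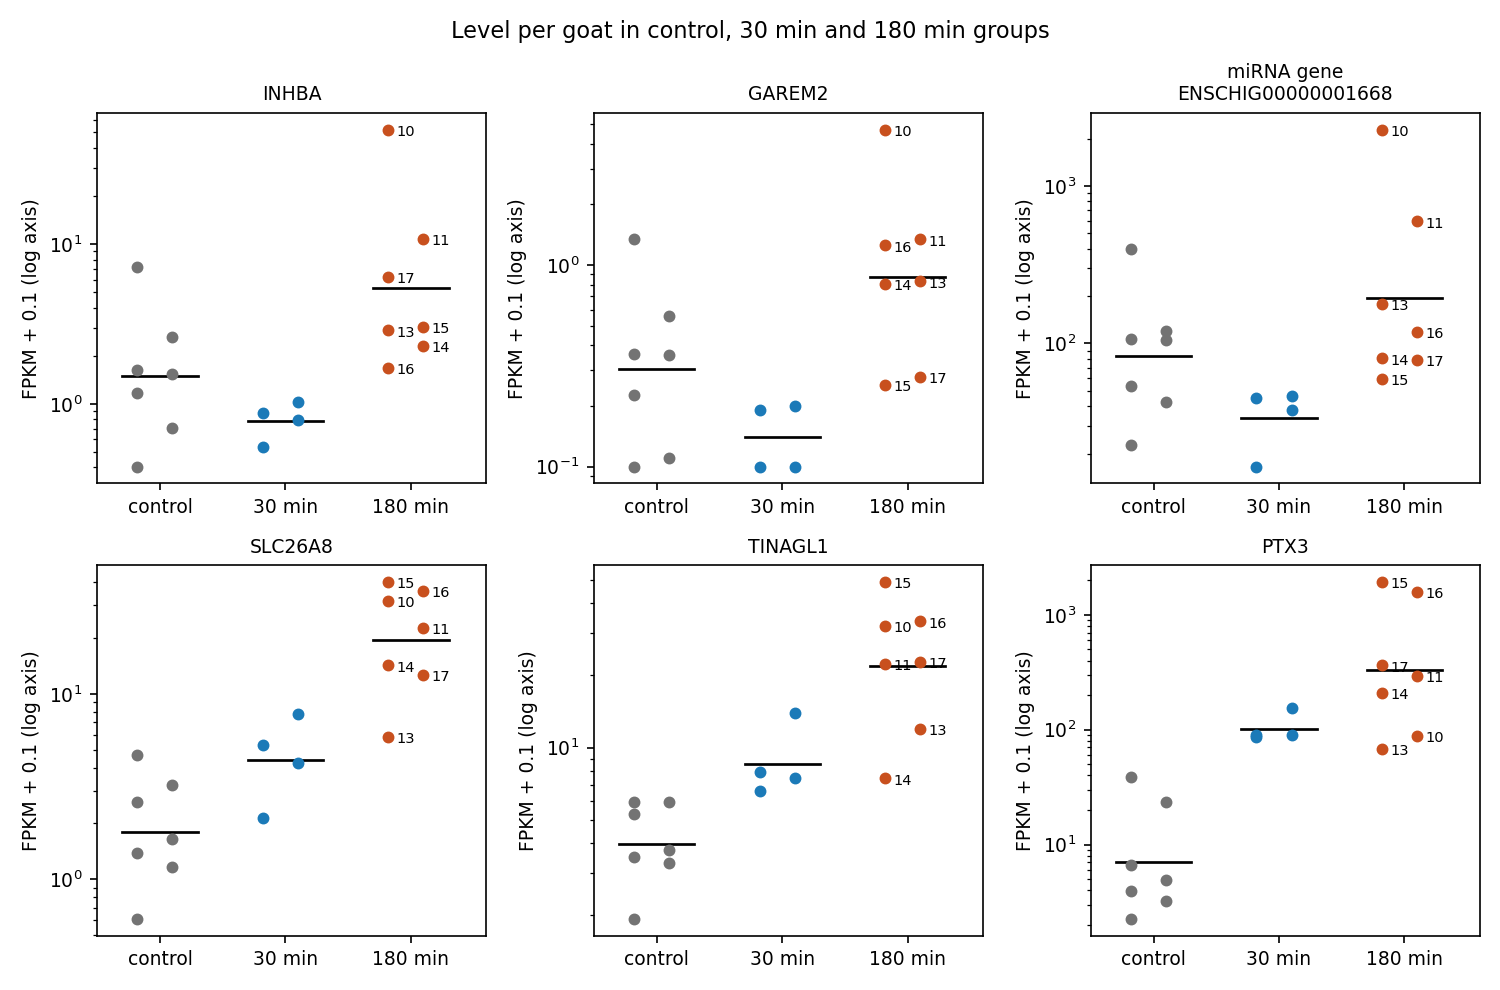
FPKM + 0.1 per goat on a log axis for the 5 genes called higher at 180 min and *PTX3*, in control (grey), 30 min (blue) and 180 min (orange, with goat numbers). Bars are means of the log values, and in *INHBA*, *GAREM2* and the miRNA gene every orange point lies above every blue point.

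*SLC26A8* (chromosome 23, 38764658 to 38832076), an anion transporter best known from sperm, had the smallest limma p-value of the 120 genes. It was at 7.69, 2.03, 4.15 and 5.18 FPKM at 30 min, from 5.77 to 39.98 FPKM with a median of 22.5 at 180 min, and 0.5101 to 4.58 FPKM in control. Goat 13, at 5.77 FPKM, was the 1 goat of 180 min within the range of the 30 min group, and goats 10, 11, 15 and 16 were the highest, from 22.5 FPKM upwards. The mean was 23.2 ± 13.01 FPKM (SD, n = 7) at 180 min and 4.76 ± 2.35 FPKM (SD, n = 4) at 30 min, a log2 difference of 2.16 (standard error 0.55, limma p = 0.00269, adjusted p = 0.225, exact permutation p = 0.00909). It was called under each of the 23 alternatives run, those that leave out 1 goat included.

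*TINAGL1* (chromosome 2, 13807904 to 13818137) encodes a secreted glycoprotein of the extracellular matrix. Its levels were 7.81, 6.49, 7.36 and 13.8 FPKM at 30 min and from 7.35 to 48.9 FPKM with a median of 22.7 at 180 min, against 1.83 to 5.85 FPKM in control. Goats 13 and 14 lay within the 30 min range and the other 5 above it. The difference was 1.35 (standard error 0.49, limma p = 0.0182, adjusted p = 0.512, exact permutation p = 0.0394), and it was not called without goat 22 (1.23, limma p = 0.0524). Both *SLC26A8* and *TINAGL1* were highest in goat 15, which held 24.6% and 27.4% of the total of the 180 min group.

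Of the uncalled genes with the highest differences, *ITPKC*, which encodes an inositol trisphosphate kinase that acts in calcium signalling, was at 9.87, 8.09, 6.41 and 7.91 FPKM at 30 min and from 6.08 to 50.4 FPKM with a median of 16.9 at 180 min. In 5 of 7 goats it was above the 30 min group, and the difference of 1.11 had an interval of -0.04 to 2.26 (limma p = 0.0573, exact permutation p = 0.0788). It passed the unadjusted threshold in edgeR and DESeq2 and without goat 13 (1.36) or goat 14 (1.29). *MOSMO*, a membrane protein that restrains hedgehog signalling, was at 0, 0.174, 0.425 and 3.67 FPKM at 30 min and from 0 to 3.26 FPKM with a median of 1.98 at 180 min. Goat 27 was far above the other goats of 30 min, goat 10 had 0 reads, and with all goats no order was detectable (difference 1.64, 95% interval -0.81 to 4.09). Without goat 27 the difference was 2.63 (limma adjusted p = 0.520) and without goat 10 it was 2.29 (limma adjusted p = 0.425), both past the unadjusted threshold.

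Of 59 genes of innate sensing and NF-kB signalling, 4 were members, all 4 above control in the mean of both groups. Called in the direct comparison were 0 of them, with 2 higher and 2 lower in the mean and a median difference of 0.17, where the median over all members was 0.06. The sign of this median was not stable, as it was -0.50 in edgeR with TMM factors, -0.02 in edgeR on the library sizes of the FPKM and in DESeq2, -0.11, -0.06 and -0.09 without goats 22, 27 and 15, and 0.76 without goat 24. *PTX3* (chromosome 1, 109705569 to 109711190), a soluble pattern recognition protein that neutrophils store and release, was at 154, 90.4, 89.1 and 85.5 FPKM at 30 min and from 68.1 to 1927 FPKM with a median of 296 at 180 min, against 2.16 to 39.04 FPKM in control. Goats 15 and 16 were at 1927 and 1572 FPKM, while goats 10 and 13 were at 87.8 and 68.1 FPKM, within and below the range of the 30 min group. The difference was 1.69 (standard error 0.90, 95% interval -0.29 to 3.67, exact permutation p = 0.112). Leaving out goat 10 gave a difference of 2.01 (limma adjusted p = 0.555) and leaving out goat 13 gave 2.07 (limma adjusted p = 0.594), both past the unadjusted threshold. With DESeq2 on the counts the adjusted p-value was 0.0267, so the call turned on single goats and on the model.

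*TLR4*, the receptor for bacterial lipopolysaccharide, was at 17.3, 20.98, 22.9 and 24.9 FPKM at 30 min and from 11.04 to 60.4 FPKM with a median of 25.4 at 180 min. Goats 15 and 16, at 60.4 and 49.6 FPKM, stood clear of the 30 min group, and the other 5 lay near or below its upper end (difference 0.35, 95% interval -0.56 to 1.25). The neutrophil attractant *CXCL8* was at 3.45, 0.848, 1.84 and 4.59 FPKM at 30 min and from 0.304 to 5.97 FPKM with a median of 1.07 at 180 min, with goat 15 alone above the 30 min range and a difference of -0.88 (95% interval -2.49 to 0.73, exact permutation p = 0.285). *CCL24*, a chemokine that attracts eosinophils, had at most 38 reads in any goat, and its values of 1.296, 0.125, 7.74 and 0 FPKM at 30 min and from 0 to 4.29 FPKM with a median of 0.547 at 180 min spanned much the same range.

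Of 75 genes of neutrophil and phagocyte receptors and enzymes, 8 were members, all above control in the mean of both groups. Called were 0 in either direction, and 5 were higher and 3 lower at 180 min in the mean, with a median difference of 0.37 (4 higher and 4 lower in edgeR with TMM factors, median 0.17). The median was 0.13 without goat 15, 0.20 without goat 16 and 0.24 without goat 22, and it was 0.58 with 6 higher in edgeR on the library sizes of the FPKM and in DESeq2. *C5AR1*, the receptor for the complement fragment C5a, was at 139.7, 81.2, 81.7 and 110.0 FPKM at 30 min and from 85.4 to 394 FPKM with a median of 154 at 180 min, with no goat of 180 min below the 30 min group and a difference of 0.62 (95% interval -0.28 to 1.52). Its neighbour on chromosome 18, *C5AR2*, a second receptor for C5a, was at 193, 49.9, 58.7 and 68.1 FPKM at 30 min and from 37.9 to 289 FPKM with a median of 78.9 at 180 min (difference 0.34, 95% interval -0.96 to 1.64). *ADGRG3*, an adhesion receptor of granulocytes, was at 6.32, 6.57, 6.94 and 10.4 FPKM at 30 min and from 8.75 to 23.2 FPKM with a median of 9.62 at 180 min.

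The goats of 180 min were packed more closely for *ADGRG3* than for the other receptors, all 7 of them at or above 8.75 FPKM, and the difference of 0.66 had the narrowest interval among the 8 genes (-0.02 to 1.33, limma p = 0.05498, exact permutation p = 0.0636). It passed the unadjusted threshold without goat 27 (0.82) or goat 13 (0.73) and with a pseudocount of 1 (0.60). *MGST1*, a membrane glutathione transferase, was at 13.2, 12.1, 14.5 and 13.96 FPKM at 30 min and from 2.44 to 46.2 FPKM with a median of 21.3 at 180 min. In this gene 6 goats of 180 min were above all goats of 30 min and goat 10 was far below them, and the difference was 0.41 (exact permutation p = 0.609) with goat 10 and 0.88 (limma p = 0.0262) without it. *VNN1*, the pantetheinase vanin-1, differed by 0.66 (95% interval -0.78 to 2.10), with 3.396, 7.97, 2.17 and 3.26 FPKM at 30 min and from 1.51 to 13.6 FPKM with a median of 9.77 at 180 min.

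*PTAFR*, the receptor for platelet-activating factor, was at 166, 81.3, 98.7 and 164 FPKM at 30 min and from 9.95 to 422 FPKM with a median of 95.6 at 180 min. Goats 14, 15 and 16 were above the 30 min group and goats 10, 11 and 13 below it, so that the mean differed by -0.32 with an interval of -2.23 to 1.60. *BST1*, the surface enzyme CD157 of myeloid cells, was at 2.55, 1.99, 3.13 and 3.49 FPKM at 30 min and from 0 to 7.18 FPKM with a median of 1.55 at 180 min, with 0 reads in goat 11. The difference was -0.84 (95% interval -3.06 to 1.37).

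Of the 26 neutrophil markers on the cell type list, 4 were members (*VNN1*, *C5AR1*, *PTAFR* and *BST1*). Their summed level was 172.4 to 311.6 FPKM at 30 min (median 233.1), 112.7 to 830.8 at 180 min (median 252.8) and 76.2 to 169.0 in control (median 110.6). *C5AR1* and *PTAFR* made up most of this sum, with the mean higher at 180 min in the first and lower in the second. As members were listed for differing from control, the distance of such sums from control follows from the choice, and they do not stand for a cell type. Of the B cell markers, *PRDM1* and *MS4A1* were members, with a summed level of 31.6 to 43.3 FPKM at 30 min, 33.9 to 49.9 at 180 min and 34.7 to 50.6 in control. In the mean of both transported groups *PRDM1* was above control and *MS4A1* below it, so this sum hides opposite directions. Markers of T and NK cells, monocytes or platelets were not among the members, and the red cell list had 1, *CA2*, at 7.46 to 17.5 FPKM at 30 min and 2.27 to 24.1 at 180 min. The study counted leukocytes in its treatment groups and reported more neutrophils and fewer lymphocytes at 180 min than at 30 min or in control. Those counts were not set beside the levels here, and the share of cell types in the differences was not tested.

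Of 51 glucocorticoid-induced genes, 9 were members, all above control in the mean of both groups, and 0 were called in the direct comparison. In the mean of log2 levels 7 of the 9 were lower at 180 min with a median difference of -0.15, and with edgeR and TMM factors all 9 were lower with a median of -0.27. With edgeR on the library sizes of the FPKM and with DESeq2, 7 of the 9 were higher with a median of 0.14, and without goat 10 the split was 6 higher and 3 lower. Without goat 15 or goat 16 all 9 were lower, with medians of -0.45 and -0.39. No order of the group as a whole between 30 and 180 min was therefore read from these libraries. Goat by goat, the median of the 9 genes relative to the control mean was 1.65, 1.15, 1.22 and 1.00 in goats 21, 22, 24 and 27. At 180 min it was -1.22 in goat 10, 0.32, 0.39 and 0.46 in goats 11, 13 and 17, 1.18 in goat 14, and 2.75 and 2.11 in goats 15 and 16.

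*DDIT4*, a stress-induced inhibitor of mTOR, did not share this spread. It was at 72.8, 69.9, 84.6 and 77.9 FPKM at 30 min and from 42.5 to 97.8 FPKM with a median of 82.5 at 180 min, with the highest value in goat 10, against 9.55 to 39.4 FPKM in control. The difference was -0.13 with an interval of -0.74 to 0.48, within 2-fold. *ARRDC4*, an arrestin-like regulator of glucose uptake, was inside 2-fold with all goats (difference 0.01, 95% interval -0.88 to 0.90), though under only 8 of 19 alternatives, with 11.7, 10.4, 10.7 and 6.31 FPKM at 30 min and from 4.53 to 19.2 FPKM with a median of 7.76 at 180 min.

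The kinase *SGK1*, a classical target of the glucocorticoid receptor, was at 34.8, 24.02, 21.2 and 17.4 FPKM at 30 min and from 2.12 to 67.1 FPKM with a median of 15.9 at 180 min. Goats 14, 15 and 16 were above the 30 min group and goats 10, 11, 13 and 17 below it (difference -0.47, 95% interval -2.30 to 1.36). *CEBPB* (chromosome 13, 77740508 to 77741563), a transcription factor of myeloid cells and acute phase responses, was at 431, 275, 238 and 200.1 FPKM at 30 min and from 18.7 to 815 FPKM with a median of 111 at 180 min. Here only goats 15 and 16 exceeded the 30 min group, goats 10, 11, 13 and 17 were below it and goat 14, at 211 FPKM, was within it (difference -0.87, 95% interval -2.80 to 1.05, exact permutation p = 0.397).

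*GADD45A*, which responds to DNA damage and growth arrest, was at 22.8, 14.5, 19.5 and 16.7 FPKM at 30 min and from 2.72 to 46.3 FPKM with a median of 12.3 at 180 min (difference -0.38, 95% interval -1.75 to 0.99). *SOCS3*, an inhibitor of cytokine receptor signalling, was at 168, 92.1, 96.1 and 68.9 FPKM at 30 min and from 38.9 to 303 FPKM with a median of 79.3 at 180 min, and its difference of 0.01 had an interval of -1.26 to 1.28. *CRISPLD2*, a secreted protein that binds lipopolysaccharide, was at 62.1, 43.9, 46.5 and 60.9 FPKM at 30 min and from 16.3 to 151 FPKM with a median of 40.4 at 180 min (difference -0.04). In all 3 genes goat 15 was the highest and goat 10 the lowest of the 180 min group, and the range of 180 min enclosed that of 30 min.

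Of 41 immediate early and early response genes, 3 were members, *FOS*, *KLF4* and *DUSP1*. Called were 0, the mean was lower at 180 min in all 3 with a median difference of -0.62, in all 3 also with edgeR and TMM factors (median -0.53), whereas with edgeR on the library sizes of the FPKM and with DESeq2 it was higher in 2 of 3 (median 0.11). Without goat 10 it was lower in 2 of 3 with a median of -0.09, without goat 21 also lower in 2 of 3 (-0.54), and without goat 22 the median was -0.24, while it was -0.95 without goat 15 and -0.83 without goat 16. *FOS*, a subunit of the AP-1 transcription factor, was at 14.7, 35.8, 11.96 and 10.99 FPKM at 30 min and from 1.76 to 43.03 FPKM with a median of 9.85 at 180 min, with goat 15 alone above goat 22. *DUSP1*, a phosphatase that switches off MAP kinases, was at 34.4, 17.5, 30.9 and 27.3 FPKM at 30 min and from 1.48 to 92.2 FPKM with a median of 13.3 at 180 min. In both genes 4 goats of 180 min were below the whole 30 min group, and the differences of -0.62 and -0.66 had intervals of -2.30 to 1.07 and -2.65 to 1.33 (exact permutation p = 0.482 and 0.561). *KLF4*, a transcription factor of myeloid differentiation, was at 3.36, 2.999, 1.22 and 2.095 FPKM at 30 min and from 0.327 to 7.3004 FPKM with a median of 1.903 at 180 min (difference -0.15).

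**Figure D3:**
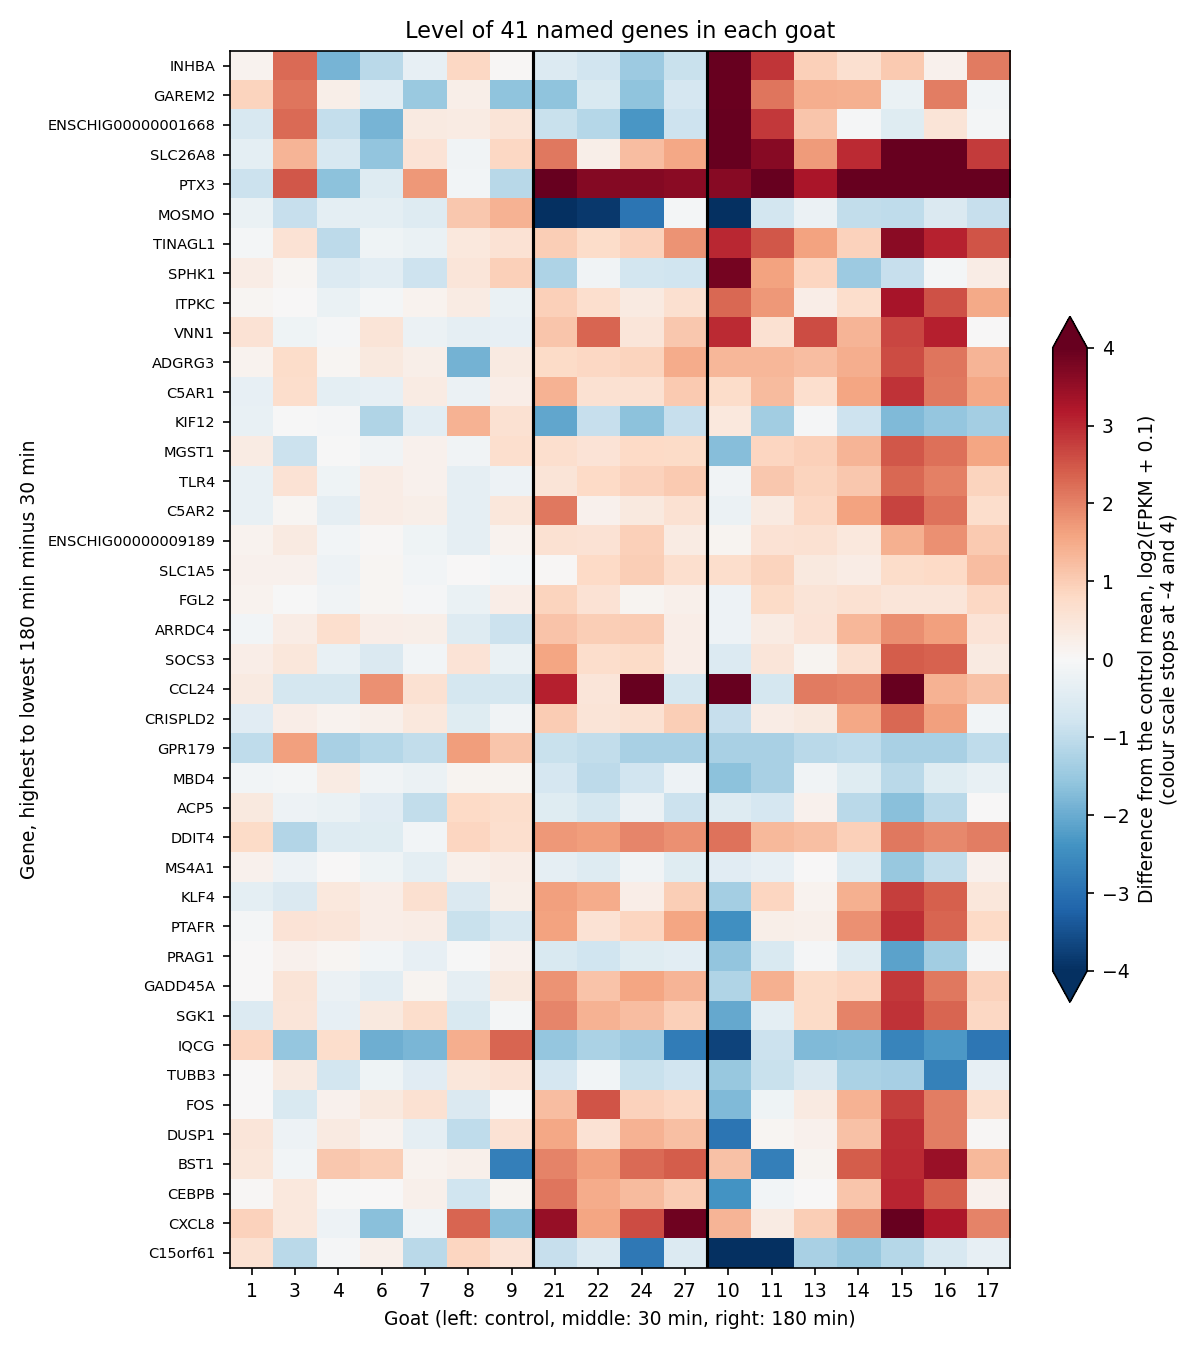
Difference of each goat from the control mean (log2(FPKM + 0.1), colour, stopping at -4 and 4) for the 41 named genes (rows, highest to lowest 180 min minus 30 min) in the 18 goats (columns; control, 30 min and 180 min from left to right). The 30 min goats resemble each other, while at 180 min goats 15 and 16 are red and goat 10 blue in most genes of the lower part.

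Of the 59 members below control, 31 had a mean of at least 10 reads, and 0 of the 59 were called in the direct comparison. The lowest difference of all members was that of *C15orf61*, an uncharacterised gene, at -1.17 (95% interval -3.87 to 1.53, exact permutation p = 0.406). It was at 3.17, 4.15, 0.754 and 4.15 FPKM at 30 min and from 0 to 4.93 FPKM with a median of 2.47 at 180 min, with 0 reads in goats 10 and 11. *TUBB3*, a beta tubulin, was at 2.94, 4.38, 2.498 and 2.73 FPKM at 30 min and from 0.646 to 3.75 FPKM with a median of 1.94 at 180 min, where 4 goats were below the 30 min group and 0 above it (difference -0.61, 95% interval -1.51 to 0.28, exact permutation p = 0.176).

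*IQCG*, which encodes a protein of motile cilia, had 3 to 21 reads per goat at 30 min and 0 to 21 at 180 min, and no order was detectable (difference -0.51, 95% interval -1.64 to 0.62). *KIF12*, a kinesin, was at 0.526, 1.29, 0.751 and 1.28 FPKM at 30 min and from 0.683 to 3.45 FPKM with a median of 0.917 at 180 min, with goat 10 highest (difference 0.46, 95% interval -0.54 to 1.46). *PRAG1*, a pseudokinase scaffold, was at 6.18, 5.41, 6.65 and 7.01 FPKM at 30 min and from 2.07 to 9.17 FPKM with a median of 6.09 at 180 min. Goats 10, 15 and 16 were below the 30 min group and goats 13 and 17 above it (difference -0.33, 95% interval -1.22 to 0.57).

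Genes with an interval inside 2-fold came from both sides of control. Of the 15 with at least 10 reads, 6 were above control in both groups and 9 below. Of these 15, 5 (*DDIT4*, *FGL2*, *SLC1A5*, *EZH2* and *ITGA10*) stayed inside 2-fold under all 19 alternatives that give an interval, *MS4A1* under 18, *MBD4* under 17 and *ACP5* under 15. The 6 with the highest mean FPKM were *DDIT4*, the unnamed gene ENSCHIG00000009189, *FGL2*, *MS4A1*, *ACP5* and *SLC1A5*, of which ENSCHIG00000009189 stayed inside under 7 alternatives. *FGL2*, a fibrinogen-like protein with immune regulatory roles, was at 57.2, 46.5, 33.8 and 35.9 FPKM at 30 min and from 27.03 to 54.7 FPKM with a median of 43.98 at 180 min (difference 0.05, 95% interval -0.48 to 0.57). *SLC1A5*, a glutamine transporter, was at 7.11, 12.1, 13.95 and 11.1 FPKM at 30 min and from 8.603 to 16.5 FPKM with a median of 11.6 at 180 min (difference 0.10, 95% interval -0.44 to 0.64). In both genes the groups overlapped over most of their range.

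*MS4A1*, which encodes the B cell antigen CD20, was at 29.2, 25.7, 33.7 and 26.5 FPKM at 30 min and from 12.8 to 42.1 FPKM with a median of 27.3 at 180 min (difference -0.14, 95% interval -0.83 to 0.55). Goats 15 and 16, the highest goats for most genes above control, were the lowest for *MS4A1*. The same goats were the lowest for *ACP5*, the tartrate-resistant acid phosphatase, with 7.81 and 11.9 FPKM against 17.7, 15.4, 21.1 and 13.8 FPKM at 30 min (difference -0.12, 95% interval -0.88 to 0.64). Goat 14, also at 11.9 FPKM, was level with goat 16 to the digits given. *MBD4*, a DNA repair glycosylase whose gene overlaps *IFT122* on the other strand in the RefSeq annotation, so that reads of the pair may be mixed, differed by -0.10 (95% interval -0.81 to 0.61). *GPR179* had at most 5 reads in any transported goat, and its narrow interval (-0.44 to 0.30) reflects values near 0.

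**Figure D4:**
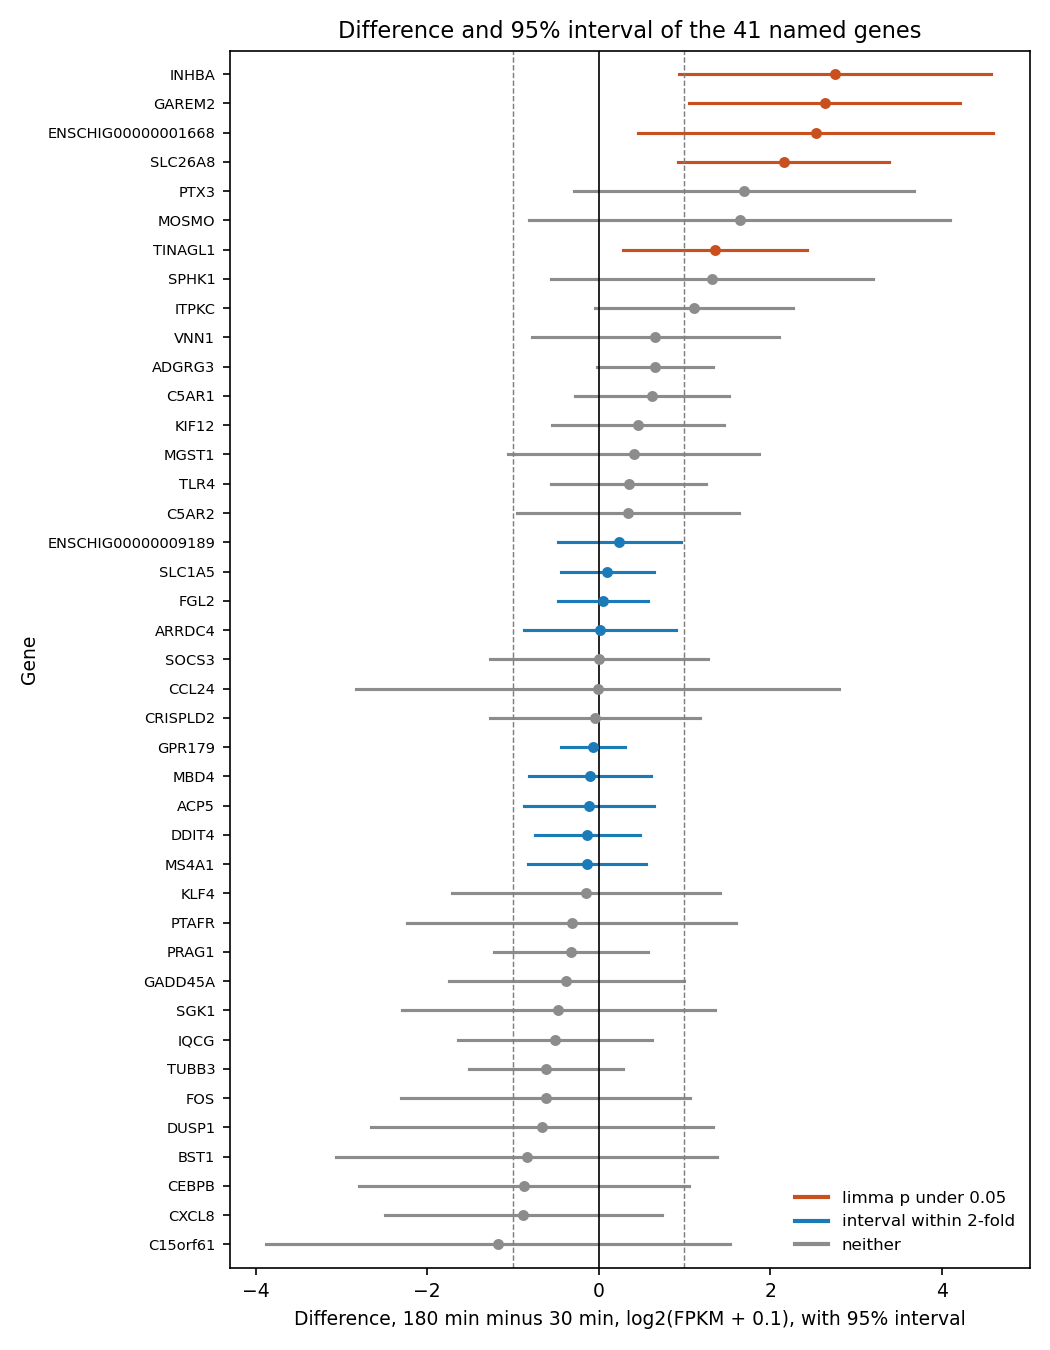
Difference 180 min minus 30 min with its 95% confidence interval (log2(FPKM + 0.1)) for the 41 named genes, with dashed lines at 2-fold. The 5 called genes (orange) exclude 0, the intervals of 9 genes (blue) stay inside 2-fold, and the other intervals (grey) include 0 and cross at least 1 of the dashed lines.

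On these selected genes, goats of 180 min differed from each other more than goats of 30 min did. Among the 89 genes with at least 10 reads, the SD of log2 levels was larger at 180 min in 74, with a median SD of 1.12 against 0.50 at 30 min and 0.55 in control. The count stayed between 70 and 77 when any 1 goat of 180 min was left out. For the 54 of these genes that lay above control the SD was larger at 180 min in 50, with medians of 1.23 and 0.42, and for the 31 below control in 20, with medians of 0.77 and 0.58. The members were chosen on contrasts that used these same values, with 4 goats at 30 min and 7 at 180 min. The spread within each group is therefore not independent of the choice. Genes measured in the same goats are not independent either, so these counts are given as description, without a test.

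**Figure D5:**
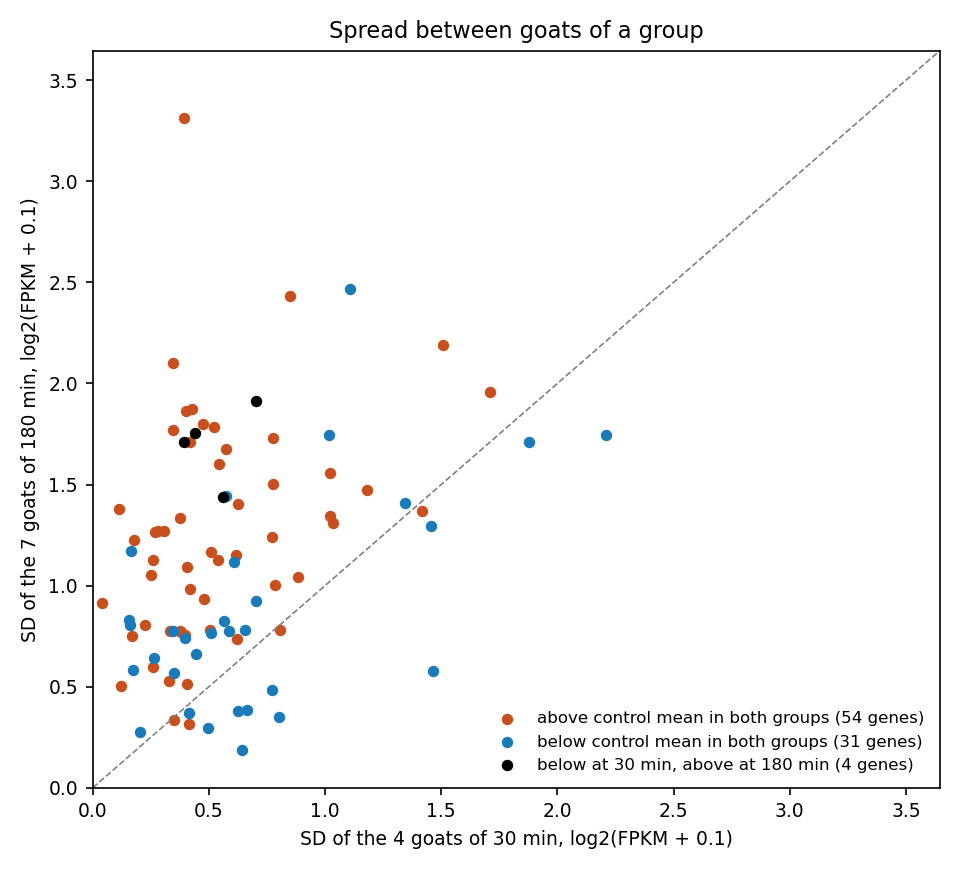
SD of log2(FPKM + 0.1) among the 7 goats of 180 min (vertical axis) against the 4 goats of 30 min (horizontal axis), 1 point per gene for the 89 genes with a mean of at least 10 reads, with the line of equal SD dashed. Of the 89 points, 74 lie above the line.

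The spread followed single goats. Across the 54 genes above control, goat 15 was the highest of the 180 min group in 39 and goat 16 in 10, and goat 10 was the lowest in 31. The median distance of these genes from the control mean was 2.72 in goat 15, 2.16 in goat 16, 1.48 in goat 14, 0.84 in goat 17, 0.66 in goat 11, 0.54 in goat 13 and -0.13 in goat 10. In the 30 min group it ran from 0.73 in goat 22 to 1.37 in goat 21. Goat 10 was below the control mean in 30 of the 54 genes, had 38 members with 0 reads and had the smallest library of its group. Below control the median of the 31 genes was -0.63 to -1.24 in the 30 min goats and -0.23 to -1.38 in the 180 min goats, with goat 13 nearest to control and goat 10 farthest.

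The other lists held few members. Of 66 metabolic enzymes and transporters 5 were members. All 5 had a higher mean at 180 min, where 73 of all 120 members did. For *SPHK1*, 1 of the 5, the choice of members fixed this direction, and *ENTPD2* had at most 12 reads in any transported goat. Called was 1 of them (*SLC26A8*), where 4.17% of all members were called higher. Their median difference was 0.73. It was 0.29 without goat 15, 0.39 without goat 16 and 1.48 in edgeR on the library sizes of the FPKM and in DESeq2. Of 28 genes of the TGF-beta and activin family 2 were members, *INHBA*, which was called, and its receptor *ACVR1B*, with a difference of 0.53 (95% interval -0.79 to 1.84). Of 63 transcription factors 7 were members with a median difference of 0.04, of 69 adhesion, matrix and cytoskeleton genes 5 with 0.05, and of 54 genes of apoptosis, DNA damage and the cell cycle 5 with -0.10, and 0 genes of these 3 lists were called. The medians of these 3 lists changed sign between the scalings. The metabolic genes (5, or the 4 that pass the filters) were higher under every alternative of limma, edgeR and DESeq2. Over all 120 members the number higher moved between 58 with median centring and 88 in edgeR on the library sizes of the FPKM. As the choice of members fixed the direction of *SPHK1*, no order of the metabolic list was read from its count. Its difference from the other members was not tested. The interferon list held 1 member, *MX2*, with a difference of 0.15 (95% interval -1.66 to 1.96), and 0 genes of the T and NK cell, monocyte and platelet lists were members.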

How the data were processed

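Reads were cleaned with fastp and mapped with HISAT2 by the authors. The counting tool, strand setting and genome build are not given in the sources used here. The deposited counts are whole reads per gene and goat. The deposited FPKM are those counts scaled by gene length and by the effective library size of the goat, recomputed here, and control values were identical in both tables, so that all 18 goats share one scale. Gene lengths are those deposited in the tables (another annotation column, in bases). The tables hold only genes the authors listed as differing from control, and their log2 fold changes and p-values of those contrasts were not used. The members and gene lists were chosen with earlier results of these data known.

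Levels were compared as log2(FPKM + 0.1) with limma 3.58.1 (lmFit, eBayes, two-sided) in R 4.3.3 over 4 and 7 goats, adjusted by Benjamini-Hochberg over 120 genes. A gene was called at an unadjusted p under 0.05 and taken as within 2-fold where the 95% interval lay between -1 and 1. Exact two-sided permutation tests used all 330 splits. The scripts were tested on simulated counts with the same dispersion in both groups and independent genes. The spread of these goats differed between groups, so that test does not give error rates for these data. Replicates are goats, and within a group, pairs of goats shared the same count in at most 1.87% of genes. Depth per goat was 10443023 to 39473244, and read counts carry counting error only beside the spread between goats.

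Genes named in the text are the called genes, the 4 highest and 4 lowest differences among uncalled genes that have a gene name, the 6 most abundant within 2-fold, members in the study's tables of differentially expressed genes (its tables of biological processes were not used), and members of the neutrophil, innate sensing, glucocorticoid and immediate early lists. *ACVR1B*, *MX2*, *CA2*, *PRDM1*, *EZH2* and *ITGA10* were named after their values were seen, as were the platelet genes and, in the closing section, *ETS2*, *PLK1* and ENSCHIG00000004084. The alternatives were pseudocounts of 0.01 and 1, filters on FPKM (at least 1) and reads (at least 10), median centring, all 18 goats, a variance trend, edgeR 4.0.16 on the counts with the library sizes of the FPKM or TMM factors, DESeq2 1.42.0, exact permutation and Mann-Whitney tests, and leaving out each goat. The medians for centring and the TMM factors came from the members alone, a set chosen for differing from control. None of the alternatives modelled a separate variance for each group. The SD count without single goats, the list directions and the count of alternatives within 2-fold per gene were added after seeing the data. The figures were drawn with matplotlib 3.10.9.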

Additional observations from a re-analysis of the deposited data

Results flagged for a closer look

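In 8 of 123 groups of goats tested over the named genes, 1 goat lay far from the rest of its group by Dixon's criterion, where chance gives about 1 in 20. Goat 10 accounted for 3 of the 8. It was the lowest goat of 180 min for *MOSMO*, at 0 FPKM against 1.87 to 3.26, for *FGL2*, at 27.03 against 43.6 to 54.7, and for *MGST1*, at 2.44 against 15.1 to 46.2. In the 30 min group goat 21 was the highest for *PTX3*, at 154 FPKM against 85.5 to 90.4, and goat 24 the lowest for *C15orf61*, at 0.754 against 3.17 to 4.15. Among the control goats, goat 8 was the lowest for *CEBPB*, at 56.8 against 97.6 to 131, and for *ADGRG3*, at 0.9105 against 3.93 to 6.19, and goat 9 had 0 FPKM of *BST1* against 0.5201 to 1.31. Control goats did not enter the direct comparison.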

How the results depend on the processing

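The number of genes higher at 180 min was 9 with edgeR on the library sizes of the FPKM, 9 with edgeR and TMM factors and 9 with DESeq2, where limma gave 5. All 3 included the 5 genes called by limma, *PTX3*, *ITPKC* and *SPHK1*, and the ninth was ENSCHIG00000004084 in edgeR and *ETS2* in DESeq2. DESeq2 gave 5 genes with an adjusted p under 0.05 (*PTX3*, *SLC26A8*, *GAREM2*, *INHBA* and the miRNA gene) where limma and edgeR gave 0. With 1 goat left out the count ran from 4 to 9. It was 9 without goat 10, with *MOSMO*, *MGST1*, *ETS2* and *PTX3* added, 8 without goat 27, with *PLK1*, *MOSMO* and *ADGRG3* added, and 8 without goat 13, with *ITPKC*, *PTX3* and *ADGRG3* added. The count was 6 with a pseudocount of 1, which added *ADGRG3*, and 6 with all 18 goats, which added *ITPKC*. The Mann-Whitney test did not call *TINAGL1*. The count of genes lower was 0 under every alternative run. The count within 2-fold was 8 with a pseudocount of 0.01, 60 with a pseudocount of 1, 11 with an FPKM of at least 1, 10 with at least 10 reads and 14 with DESeq2, and 22 to 35 with 1 goat left out. With the filters fewer genes were tested, but 15 genes within 2-fold in the main fit already had a mean of at least 10 reads. The cause of these moves was not tested. edgeR and the exact tests gave no interval. The genes with a larger SD at 180 min numbered 70 to 77 with 1 goat of that group left out.

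The median difference over all members moved from 0.06 by 0.27 with edgeR on the library sizes of the FPKM, by 0.26 with DESeq2 and by 0.16 without goat 10, and it was -0.01 with edgeR and TMM factors and with median centring. The TMM factors and the centring were computed on the members alone, which by itself draws this median close to 0. Of 938 values of the 41 named genes under an alternative, 911 kept their side of the threshold and stayed within 1 SD where not called, 20 passed it newly, 3 no longer passed it, 4, all of *GPR179*, moved by more than 1 SD, and 0 called values changed sign. No paired analysis was possible because the goats of the groups carry different numbers.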
